A study of Rattus norvegicus with 8 samples.

Results

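Amino acid transporter genes were followed in isolated rat hearts exposed to doxorubicin, an anthracycline anticancer drug that poisons topoisomerase II. The genes were taken by name from the array annotation, as every gene of the solute carrier families Slc1, Slc3, Slc6, Slc7, Slc36, Slc38 and Slc43 that was read by a probe set with a single gene symbol. Slc7a11 was left out. The rule gave 52 genes with 71 probe sets, of 14217 named genes and 31042 probe sets in all. There were 14 genes in the Slc7 family, 2 in Slc3, 6 in Slc1, 9 in Slc38, 16 in Slc6, 3 in Slc36 and 2 in Slc43. One of the 52, Slc7a6os, lies on the strand opposite Slc7a6 and shares its name but encodes no transporter, so 51 are carriers or carrier subunits. The Slc6 genes include the monoamine carriers Slc6a2, Slc6a3 and Slc6a4 and the creatine carrier Slc6a8, which belong by family and not by an amino acid substrate.

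The study compared 4 hearts perfused for 2 h with 2 µM doxorubicin and 4 control hearts perfused for 2 h without the drug, each on its own Affymetrix array. All hearts came from male Wistar rats and were perfused without recirculation on a Langendorff apparatus, which feeds the coronary vessels of an excised heart through the aorta. Per the labels, each array is a biological replicate. A level is the log2 of a probe set's deposited intensity. A difference is the mean log2 level of doxorubicin hearts minus that of control hearts, and its standard error (SE) comes from a limma fit across all probe sets.

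Amino acid transporters carry amino acids and related molecules across the plasma membrane and the membranes of lysosomes. Some are exchangers, some are driven by the sodium gradient, and several light chains of the Slc7 family reach the membrane only when joined to a heavy chain of the Slc3 family. In heart muscle they supply leucine and glutamine for protein synthesis and metabolism, arginine for nitric oxide synthesis, and taurine and creatine, which cardiomyocytes hold at high concentration. When amino acids run short, the kinase GCN2 and the transcription factor ATF4 raise several of these carriers, as known from mouse and human cells, while amino acids in the lysosome are sensed by the machinery that activates the growth kinase complex mTORC1.

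A single transporter gene passed the test. Slc7a1, which encodes the cationic amino acid transporter CAT1, the carrier of arginine and lysine, fell 1.61-fold in doxorubicin hearts, and the other 51 genes did not pass. The share called, 1.92% of 52 genes, lay below the 2.97% called in either direction over all genes. Of all genes, 2.17% were called lower and 0.802% higher at a limma adjusted p under 0.05. The median difference over the 52 genes was -0.02, beside 0.01 over all genes, and the members ranged from -0.72 for Slc1a3 to 0.23 for Slc38a10. Of the 52 genes, 13 were dim, with a mean level under 4.16 log2, below which 25% of all probe sets lie, and 39 were not. The called gene was among the 39.

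At an unadjusted p under 0.05 in limma, 9 members were lower, 17.3% of the 52, beside 7.07% of all genes. Another 2 members were higher, 3.85% of the 52, beside 9.67% of all genes. The 4 doxorubicin values lay wholly below the 4 control values for 5 members, 9.62% of the list, beside 4.69% of all genes. They lay wholly above for 1 member, 1.92% of the list, beside 5.75% of all genes. The 5 lower genes were Slc7a1, Slc7a5, Slc1a1, Slc1a4 and Slc38a6, and the higher one was Slc43a1. A lower level in a whole heart can come from fewer cells of a type or from less RNA per cell, which cannot be told apart here.

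**Figure D1:**
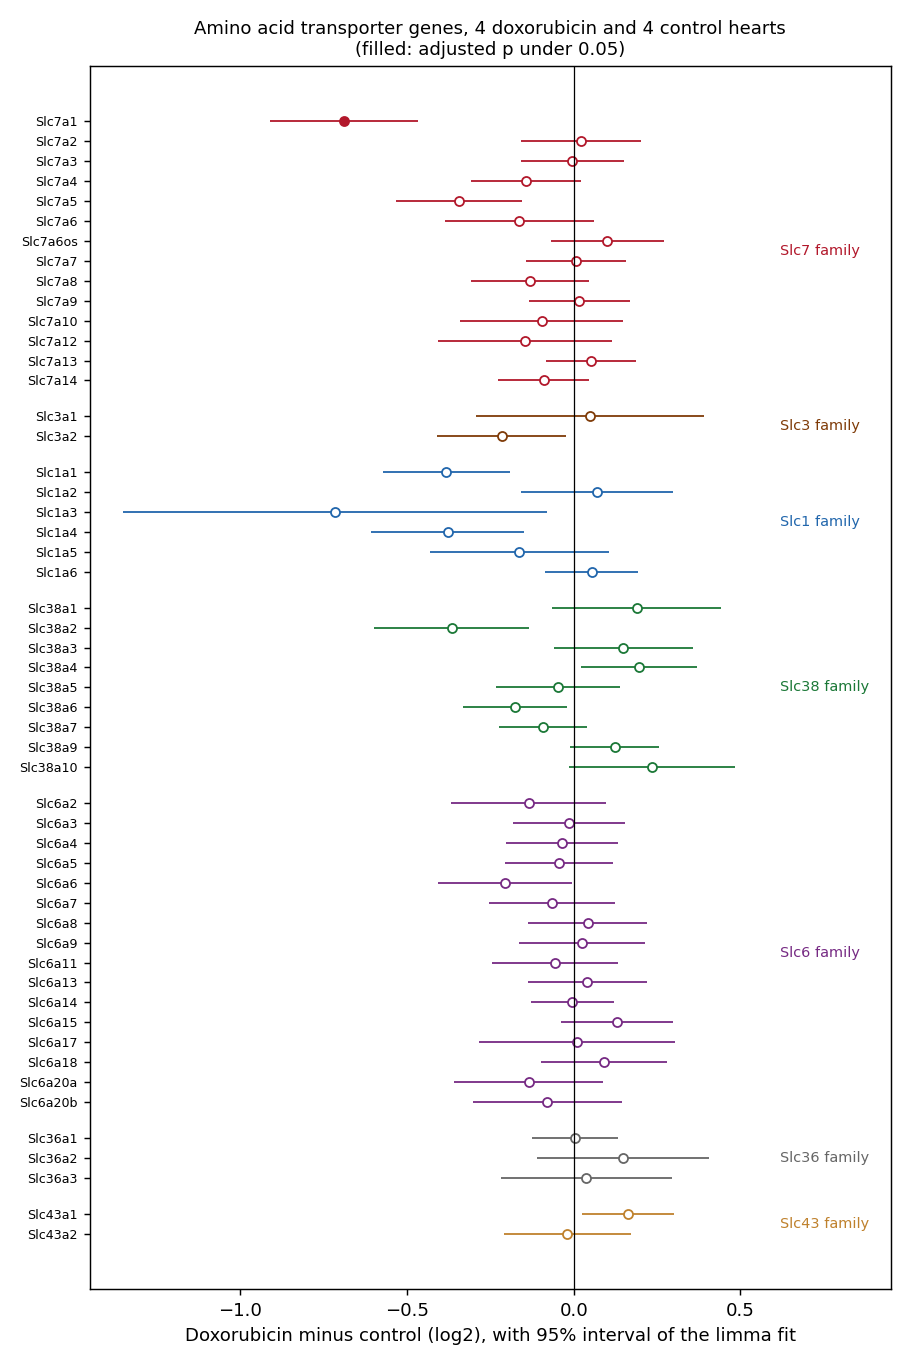
Difference of each of the 52 genes (doxorubicin minus control, log2) with its 95% interval, grouped by family, from 4 doxorubicin and 4 control hearts. Filled points passed an adjusted p under 0.05, which Slc7a1 alone did, at -0.69, while Slc1a3 at -0.72 had a wide interval of -1.35 to -0.08.

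The arrays of a group correlated at 0.988 to 0.996 over all probe sets, which are not independent replicates, and no 2 of the 8 arrays were the same. The hybridization control level, the mean of 18 probe sets for bacterial and phage transcripts added before hybridization, was 10.02 ± 0.08 log2 on doxorubicin arrays and 10.32 ± 0.17 log2 on control arrays (SD, n = 4 each). It differed by -0.30 (two-sided exact permutation p = 0.0286, the smallest the 70 draws allow, adjusted p = 0.143 over 5 quality measures). Single doxorubicin arrays lay at 9.97 to 10.13 log2 and single control arrays at 10.21 to 10.57 log2. The groups did not overlap, so a fit with this level as a covariate cannot tell its part from that of the drug. Cardiomyocyte markers were high in every heart, with a mean of 13.66 to 13.72 log2 over 7 genes in doxorubicin hearts and 13.64 to 13.68 log2 in control hearts. Atrial markers (Nppa, Myl7, Myl4 and Sln) had a mean of 7.46 to 12.06 log2 in single doxorubicin hearts and 6.63 to 11.02 log2 in single control hearts, and fat markers 6.41 to 8.38 and 6.42 to 7.15 log2, so the hearts differed in these tissues within both groups. Between the groups, all 4 atrial differences were positive (median 0.95), as were 5 of 6 fat differences (median 0.29), and none was called.

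The cationic carriers were Slc7a1, Slc7a2, Slc7a3 and the related Slc7a4 and Slc7a14. The level of Slc7a1 was 6.90, 7.18, 6.79 and 6.96 log2 in the 4 doxorubicin hearts, against 7.58, 7.48, 7.70 and 7.82 log2 in the 4 control hearts. Every doxorubicin heart lay below every control heart. The means were 6.96 ± 0.17 log2 with doxorubicin and 7.65 ± 0.15 log2 in controls (SD, n = 4 each), a difference of -0.69 (SE 0.10, 95% interval -0.91 to -0.47, limma adjusted p = 0.00595). Its value without any one array was -0.76 to -0.63 and it was called each time.

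Slc7a1 was read by 3 probe sets, and all stood lower with doxorubicin. The level on 1368391_at was 6.47, 6.27, 6.17 and 6.16 log2 in doxorubicin hearts, against 6.99, 6.98, 6.76 and 6.90 log2 in control hearts. These groups did not overlap either, and Slc7a1 on this probe set fell by 0.64 (SE 0.09, limma adjusted p = 0.00391), beside the fall of 0.69 on 1368392_at above. Of all probe sets, 1.52% were called lower and 4.02% had doxorubicin hearts wholly below control hearts. The remaining one, 1387167_at, had group means of 3.92 and 4.13 log2 with doxorubicin and without. Both are under the limit of 4.16 log2, and the difference of -0.20 did not pass (limma adjusted p = 0.253).

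**Figure D2:**
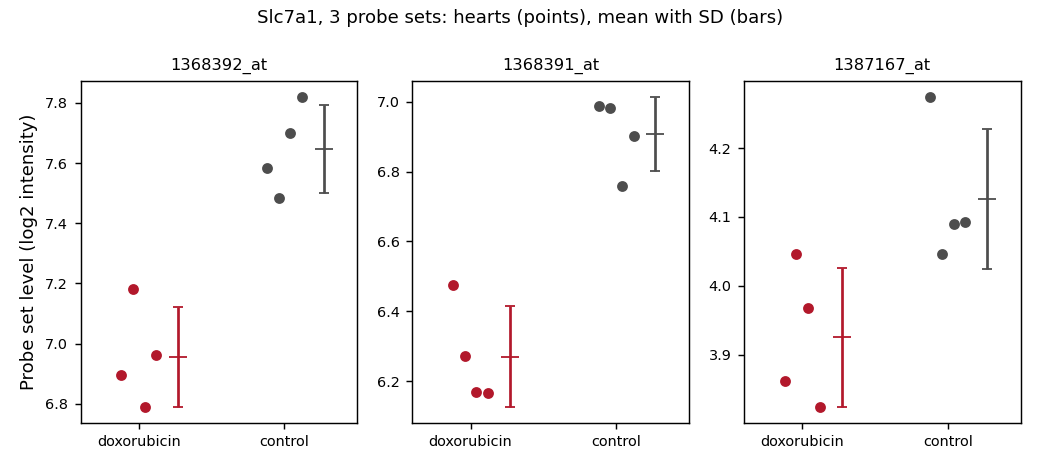
Level of the 3 Slc7a1 probe sets (log2 intensity, each panel with its own axis) in single doxorubicin hearts (red) and control hearts (grey), with the group mean and SD beside the points (n = 4 each). On the first probe set the doxorubicin hearts lie at 6.79 to 7.18 and the control hearts at 7.48 to 7.82, and on the dim 1387167_at the groups meet at 4.05.

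With the hybridization control level added to the limma fit, the Slc7a1 difference was -0.65 (SE 0.17) and lost the call (adjusted p = 0.347), and that of the second probe set was -0.68 (adjusted p = 0.204). Without the covariate the SE on 1368392_at was 0.10. As the level did not overlap between the groups, the lost call cannot be read as the part of the hybridization or of the drug. The other cationic carriers gave no call. Slc7a2 stood at 0.02, Slc7a3 at -0.0038, Slc7a14 at -0.09 and Slc7a4 at -0.14, and the first 3 of these were dim.

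The promoter of Slc7a1 is shown because ATF4 is known to act on this gene through an amino acid response element. The 250 bases before the RefSeq start, on the plus strand of GRCr8 at chr12:11664238-11664487, hold 1 match to TGATGNAA, the core of the element bound by ATF4. The match, TGATGAAA, is in capitals and begins at position -30, counted back from the start.

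Slc7a1: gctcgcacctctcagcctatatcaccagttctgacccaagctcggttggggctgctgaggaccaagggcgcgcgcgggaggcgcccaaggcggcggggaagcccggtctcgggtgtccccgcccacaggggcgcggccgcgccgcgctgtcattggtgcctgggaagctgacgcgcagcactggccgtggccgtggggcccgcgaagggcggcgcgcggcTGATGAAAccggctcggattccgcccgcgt

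Light chains of the Slc7 family exchange amino acids across the membrane in pairs with Slc3 heavy chains. Slc7a5, the LAT1 light chain, which takes up leucine and other large neutral amino acids in exchange for glutamine, had levels of 5.27, 5.02, 5.17 and 5.11 log2 in doxorubicin hearts, against 5.69, 5.47, 5.36 and 5.42 log2 in control hearts. The groups did not overlap, with the closest values at 5.27 with doxorubicin and 5.36 in controls. The means were 5.14 ± 0.11 and 5.49 ± 0.14 log2 with doxorubicin and in controls (SD, n = 4 each), and the difference of -0.34 (SE 0.08, 95% interval -0.53 to -0.15) did not pass (limma adjusted p = 0.0795).

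Slc3a2, the heavy chain known as 4F2hc or CD98 that joins LAT1, had 8.79, 8.73, 8.55 and 8.73 log2 in doxorubicin hearts, against 9.10, 8.90, 8.93 and 8.73 log2 in control hearts. Control 4 lay within the doxorubicin range and the other controls above it. The difference was -0.22 (SE 0.09, limma adjusted p = 0.305). The remaining light chains that pair with Slc3a2, namely Slc7a6 (-0.16), Slc7a7 (0.01), Slc7a8 (-0.13) and Slc7a10 (-0.10), stood at adjusted p of 0.542 to 0.982.

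Slc3a1 encodes rBAT, the heavy chain of the cystine carrier of kidney and gut, whose light chain is Slc7a9. It stood at 9.62, 10.22, 9.75 and 9.79 log2 in doxorubicin hearts and 9.67, 10.17, 9.58 and 9.77 log2 in control hearts. The groups overlapped, with the hearts numbered 2 highest in each, and the difference was 0.05 (SE 0.15, 95% interval -0.29 to 0.39). Slc7a9 was dim, at 3.67 log2 with doxorubicin and 3.66 log2 in controls, as was Slc7a13. Slc7a12 stood at -0.15 (limma adjusted p = 0.675).

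In the Slc1 family, 4 of 6 genes had negative differences, beside 48.1% of all genes, and none passed. At an unadjusted p under 0.05, 3 (50%) were lower and none higher, beside 7.07% and 9.67% of all genes. The family median was -0.27. Slc1a1, the glutamate and cysteine carrier EAAC1, had 5.11, 4.97, 5.01 and 4.75 log2 in doxorubicin hearts, against 5.39, 5.25, 5.45 and 5.28 log2 in control hearts. The groups did not overlap, and the difference of -0.38 (SE 0.09, 95% interval -0.57 to -0.19) did not pass (limma adjusted p = 0.0553). Its second probe set stood at -0.28 with overlapping groups.

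Slc1a4, the alanine, serine and cysteine carrier ASCT1, had 5.09, 4.95, 4.85 and 5.23 log2 in doxorubicin hearts, against 5.27, 5.61, 5.29 and 5.46 log2 in control hearts. The groups did not overlap, with doxorubicin 4 and control 1 the closest hearts. Its difference was -0.38 (SE 0.10, limma adjusted p = 0.11). Slc1a5, the glutamine exchanger ASCT2, had overlapping groups and stood at -0.16 (SE 0.12, 95% interval -0.43 to 0.10). It was -0.08 without control 4, -0.11 without doxorubicin 2 and -0.26 without doxorubicin 4, and was called in none of the alternatives.

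Slc1a3, the glutamate carrier GLAST, had the most negative difference of all 52 genes and also a wide spread between hearts. Its level was 5.78, 5.87, 5.83 and 6.52 log2 in doxorubicin hearts, against 5.81, 7.06, 7.18 and 6.82 log2 in control hearts. Control 1 lay among the doxorubicin hearts, and doxorubicin 4 stood above the other doxorubicin hearts. The SD was 0.35 log2 with doxorubicin and 0.62 log2 in controls (n = 4 each), and the difference of -0.72 (SE 0.28) did not pass (limma adjusted p = 0.300). Without control 1 the difference was -1.02 and passed (adjusted p = 0.0212, over all alternatives 0.0212 to 0.951).

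The atrial marker mean was highest among doxorubicin hearts in doxorubicin 4 (12.06 log2) and lowest among controls in control 1 (6.63 log2). The same hearts stood apart for Slc1a3. Control 4, with Slc1a3 at 6.82 log2, had an atrial mean of 7.38 log2. Doxorubicin 1 and 2, with Slc1a3 at 5.78 and 5.87 log2, had atrial means of 10.09 and 9.36 log2. Control 3, with Slc1a3 at 7.18 log2, had an atrial mean of 10.03 log2. The fibroblast marker mean was 9.43 to 9.50 log2 in doxorubicin 1 to 3 and 10.18 log2 in doxorubicin 4, against 8.995, 9.91, 9.98 and 9.25 log2 in controls 1 to 4. The smooth muscle and pericyte mean was 7.10 to 7.19 log2 in doxorubicin 1 to 3 and 7.66 log2 in doxorubicin 4, against 7.04, 7.57, 7.71 and 7.07 log2 in controls 1 to 4. Both means were highest in doxorubicin 4 among doxorubicin hearts, and both put the 4 controls in the same order as Slc1a3. The part of these tissues in the Slc1a3 values was not tested. The other Slc1a3 probe sets stood at -0.21 and -0.17, and the mean of the gene's probe sets at -0.37 (limma adjusted p = 0.171). On 1371130_at, at -0.17, the doxorubicin hearts lay at 4.17 to 4.34 log2, all below the control hearts at 4.40 to 4.51 log2, without passing (limma adjusted p = 0.207). Slc1a2 (0.07) and the dim Slc1a6 (0.05), carriers of glutamate in the brain, had overlapping groups.

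The Slc38 family of sodium-coupled neutral amino acid transporters gave mixed signs, with 4 of 9 differences negative and 5 positive, a median of 0.12 and no call. At an unadjusted p under 0.05, 2 (22.2%) were lower and 1 (11.1%) was higher, beside 7.07% and 9.67% of all genes. Slc38a2, the system A carrier SNAT2, which cells raise when amino acids run short, had 11.10, 11.28, 10.91 and 10.90 log2 in doxorubicin hearts, against 11.22, 11.58, 11.43 and 11.43 log2 in control hearts. Doxorubicin 2 lay above control 1, and the other doxorubicin hearts lay below every control. The difference was -0.37 (SE 0.10, 95% interval -0.60 to -0.13, limma adjusted p = 0.128).

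Slc38a6 had 4.51, 4.46, 4.42 and 4.33 log2 in doxorubicin hearts, against 4.54, 4.55, 4.58 and 4.76 log2 in control hearts. These levels are close to the dim limit, the groups did not overlap, and the difference was -0.18 (SE 0.07, limma adjusted p = 0.296). Slc38a10, at 0.23 (SE 0.11), and Slc38a4, at 0.20 (SE 0.08), had the highest differences of the 52 genes, and neither passed (adjusted p = 0.404 and 0.296). Slc38a4 was dim, at 3.92 to 4.05 log2 in doxorubicin hearts, with controls at 3.72 and 3.73 log2 except control 2 at 4.02 log2. Without control 2 its difference was 0.27 and it was called higher (limma adjusted p = 0.0499, over 16 alternatives 0.0499 to 0.973). Both genes were chosen for naming after their values were seen.

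The 3 probe sets of Slc38a1, the glutamine carrier SNAT1, disagreed in sign, at 0.19, -0.18 and -0.01, and none passed. Slc38a3, a glutamine carrier of the system N type, stood at 0.15, and the lysosomal Slc38a7 and Slc38a9 stood at -0.09 and 0.12. Slc38a9, which senses arginine for mTORC1, was dim.

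**Figure D3:**
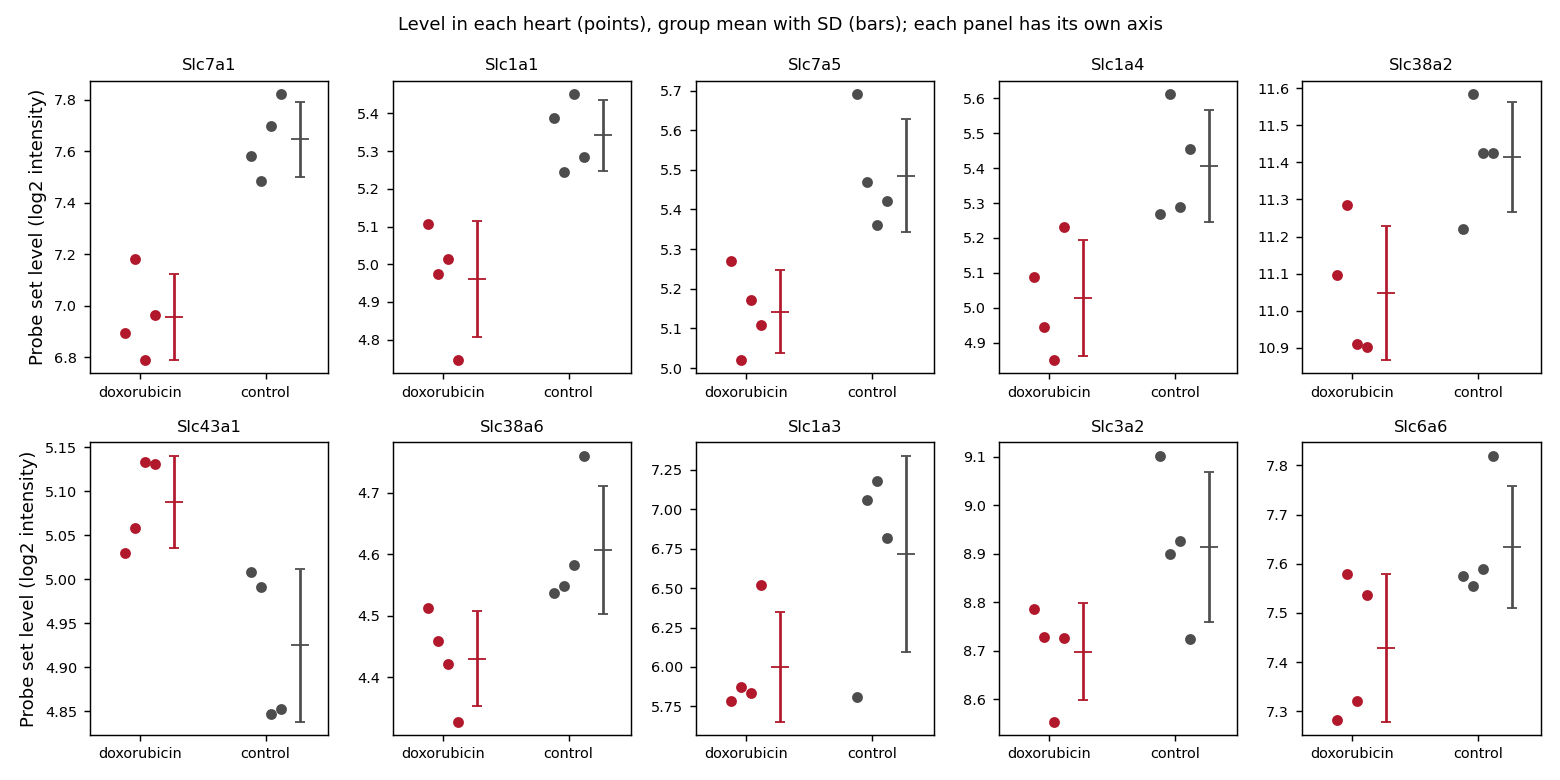
Level (log2 intensity, each panel with its own axis) of 10 members in single doxorubicin hearts (red, left) and control hearts (grey, right), with group mean and SD (n = 4 each). They are the members named by the rule in the processing section that had an unadjusted limma p under 0.05. Slc38a4, higher at an unadjusted limma p of 0.0305, was named outside that rule and is not shown. Doxorubicin hearts lie wholly below control hearts for Slc7a1, Slc1a1, Slc7a5, Slc1a4 and Slc38a6 and wholly above for Slc43a1, and the groups overlap for Slc38a2, Slc1a3, Slc3a2 and Slc6a6.

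None of the 16 Slc6 genes passed, and their differences ran from -0.21 to 0.13. At an unadjusted p under 0.05, 1 (6.25%) was lower and none higher, beside 7.07% and 9.67% of all genes. Slc6a6, the taurine carrier, had 7.28, 7.58, 7.32 and 7.54 log2 in doxorubicin hearts, against 7.57, 7.55, 7.59 and 7.82 log2 in control hearts. The groups overlapped in a narrow band, control 4 stood above the other controls, and the difference was -0.21 (SE 0.09, limma adjusted p = 0.355). Its second probe set stood at -0.08.

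Slc6a8, the creatine carrier, had 10.10, 10.09, 10.17 and 9.90 log2 in doxorubicin hearts, against 10.02, 9.98, 9.91 and 10.18 log2 in control hearts. These ranges coincided almost wholly. The difference was 0.04 (SE 0.08), with a 95% interval of -0.14 to 0.22, and a second probe set gave 0.00073. Slc6a9, the glycine carrier GLYT1, stood at 0.03 (SE 0.08, 95% interval -0.16 to 0.21), and the dim Slc6a15, a carrier of branched-chain amino acids and proline, at 0.13 (limma adjusted p = 0.527). The monoamine carriers of noradrenaline (Slc6a2), dopamine (Slc6a3) and serotonin (Slc6a4) stood at -0.14, -0.01 and -0.04. Slc6a3 and Slc6a4, with mean levels of 4.21 and 4.19 log2, lay close to the dim limit of 4.16 log2, where little change could be seen. The 5 probe sets of Slc6a17, a vesicular carrier of neurons, ranged from -0.27 to 0.01 without a call. The value of 0.01 came from the probe set that stood for the gene, at a mean level of 9.58 log2. The others had mean levels of 4.61 to 7.03 log2, and the one at -0.27 stood at 5.88 log2 (limma adjusted p = 0.228).

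The 3 proton-coupled carriers of the Slc36 family had small positive differences and overlapping groups. Slc36a1, which moves amino acids out of lysosomes, stood at 0.0026 (SE 0.06, 95% interval -0.13 to 0.13), and Slc36a3 at 0.04 (SE 0.11). Slc36a2, which is known as a surface protein of brown fat cells in mouse and human, was dim, with 3.95 to 4.06 log2 in doxorubicin hearts 1 to 3 and 4.50 log2 in doxorubicin 4, against 3.89 to 4.09 log2 in control hearts. Doxorubicin 4 stood above all other hearts. The same heart had the highest level of Ucp1, the uncoupling protein of brown fat, at 9.54 log2, beside 4.27 to 5.77 log2 in the other doxorubicin hearts and 4.32 to 6.62 log2 in control hearts. The part of fat tissue in the Slc36a2 value was not tested.

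In the Slc43 family, Slc43a1, the facilitative leucine carrier LAT3, had 5.03, 5.06, 5.13 and 5.13 log2 in doxorubicin hearts, against 5.01, 4.99, 4.85 and 4.85 log2 in control hearts. All doxorubicin hearts lay above all controls, and the difference of 0.16 (SE 0.06, 95% interval 0.02 to 0.30) did not pass (limma adjusted p = 0.272). Slc43a2, or LAT4, stood at -0.02 (SE 0.09), with a dim second probe set at -0.17.

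The 8 members that are known targets of ATF4 were set side by side. Their median difference was -0.28, and 7 of 8 differences (87.5%) were negative, beside 48.1% of all genes. In this list 1 gene was called lower and none higher, beside 2.17% and 0.802% of all genes. At an unadjusted p under 0.05 in limma, 5 (62.5%) were lower, beside 7.07% of all genes. In order the 8 members were Slc7a1 (-0.69), Slc1a4 (-0.38), Slc38a2 (-0.37), Slc7a5 (-0.34), Slc3a2 (-0.22), Slc1a5 (-0.16), Slc7a3 (-0.0038) and Slc6a9 (0.03). The level of Atf4 itself was 11.41 to 11.45 log2 in doxorubicin hearts, all below the control hearts at 11.85 to 12.13 log2. Atf4 fell by 0.53 (SE 0.07, limma adjusted p = 0.00316). The list was drawn up with earlier results of these hearts known, so its direction is not independent evidence.

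The promoters of 40 of the 52 genes were matched in the RefSeq table of GRCr8. In the 250 bases before the start, on either strand, TGATGNAA was found in 3 of the 40 genes (7.5%) and in 3.58% of 27457 genes. The 3 genes were Slc7a1, Slc1a4 and Slc38a1, the last with a difference of 0.19 on its brightest probe set. The matched promoters of the ATF4 targets Slc7a5, Slc38a2, Slc3a2 and Slc6a9 held no TGATGNAA in these 250 bases. Sequence outside this window was not searched, so an element elsewhere in these genes would be missed. The E-box CACGTG, which MYC and related factors bind, was found in 7 of the 40 (17.5%) and in 6.18% of all genes, and the AP-1 motif TGANTCA in 6 (15%) and 6.99%. A match is a description of the letters and does not show binding.

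The promoters of Slc1a4 and Slc7a5 are shown because both genes had non-overlapping groups, stood lower with doxorubicin and are ATF4 targets. They were thus picked by their values, and a link between motif and difference was not tested. That of Slc1a4, on the minus strand at chr14:98761563-98761812, holds TTGCATCA, TGATGNAA read on the other strand, from position -235 and CACGTG from position -20. That of Slc7a5, on the minus strand at chr19:66872413-66872662, holds CACGTG from position -179. Capitals mark these matches.

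Slc1a4: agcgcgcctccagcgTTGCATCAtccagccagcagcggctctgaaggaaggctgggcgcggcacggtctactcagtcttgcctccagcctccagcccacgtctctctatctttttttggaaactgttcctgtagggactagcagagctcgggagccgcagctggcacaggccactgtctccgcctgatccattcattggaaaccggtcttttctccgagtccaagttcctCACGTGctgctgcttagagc

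Slc7a5: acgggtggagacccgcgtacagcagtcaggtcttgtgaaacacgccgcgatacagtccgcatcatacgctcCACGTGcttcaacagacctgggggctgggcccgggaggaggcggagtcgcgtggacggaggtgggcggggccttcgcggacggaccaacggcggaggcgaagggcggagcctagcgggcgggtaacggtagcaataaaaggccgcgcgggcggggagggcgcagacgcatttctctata

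Other genes of amino acid handling were counted in the same fit, where 2.97% of all genes were called. At an unadjusted p under 0.05, 7.07% of all genes were lower and 9.67% higher. In the amino acid response of GCN2 and ATF4, 6 of 18 genes fell and none rose (9 lower and none higher at an unadjusted p under 0.05), with a list median of -0.19. Besides Atf4 they were the transcription factor Ddit3 (-0.95), the mTORC1 inhibitor Ddit4 (-0.98), the pseudokinase Trib3 (-0.83), the glutathione-degrading enzyme Chac1 (-1.05) and the leucine sensor Sesn2 (-0.60). Over the whole list 14 differences were negative and 4 positive. Among the 12 genes not called were Nupr1 at 0.64 (SE 0.33, limma adjusted p = 0.449) and Asns at -0.15 (SE 0.16, limma adjusted p = 0.778). Chac1 had 5.45, 5.61, 5.40 and 4.97 log2 in doxorubicin hearts, against 6.32, 6.34, 6.14 and 6.83 log2 in control hearts, with no overlap. Ddit3 alone of the 6 was called with the hybridization control level in the fit (adjusted p = 0.00906), and Sesn2 was not called when doxorubicin 1, 3 or 4 or control 2 or 4 was left out (highest adjusted p = 0.0907).

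In the list of lysosomal amino acid sensing and mTORC1, 1 of 27 genes fell and none rose (1 lower and 4 higher unadjusted), with a median of 0.06. It was Fnip2, which binds folliculin at the lysosome, at 6.98 ± 0.20 log2 with doxorubicin and 8.30 ± 0.12 log2 in controls (SD, n = 4 each), a fall of 1.32 (SE 0.10, limma adjusted p = 1.69e-04) that was also called with the hybridization covariate. Nprl2, a subunit of a complex that restrains mTORC1, stood at 0.24, and the small GTPases Rraga and Rragd at 0.19 and 0.29.

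Of 22 cytosolic aminoacyl-tRNA synthetases and their partners, the cysteinyl-tRNA synthetase gene Cars1 fell by 0.53 (SE 0.09, limma adjusted p = 0.016), none rose (3 lower and 4 higher unadjusted) and the median was 0.02. The call on Cars1 was lost without doxorubicin 1 or doxorubicin 3 (highest adjusted p = 0.0593 with an array left out), and also with the hybridization covariate (adjusted p = 0.248). Hars1 stood at 0.29 (adjusted p = 0.0537). Of 35 genes of amino acid synthesis and breakdown, Bckdk, the kinase that switches off branched-chain keto acid breakdown, rose by 0.36 (SE 0.07, limma adjusted p = 0.0295). The mitochondrial folate enzyme gene Mthfd2 fell by 0.34 (SE 0.07, adjusted p = 0.0322). At an unadjusted p under 0.05, 2 genes of this list were lower and 4 higher. Bckdk was called without doxorubicin 4 or control 2 but not when any other array was left out (highest adjusted p = 0.0950). Mthfd2 was not called when doxorubicin 1, 2 or 4 or control 3 or 4 was left out (highest adjusted p = 0.113). With the hybridization covariate neither was called, with an adjusted p of 0.516 for Bckdk and 0.663 for Mthfd2. None of 16 transporters of amino acids from other families passed in limma (1 lower and 1 higher unadjusted), among them the aromatic amino acid carrier Slc16a10 at -0.26 and the mitochondrial aspartate-glutamate carrier Slc25a13 at 0.22.

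**Figure D4:**
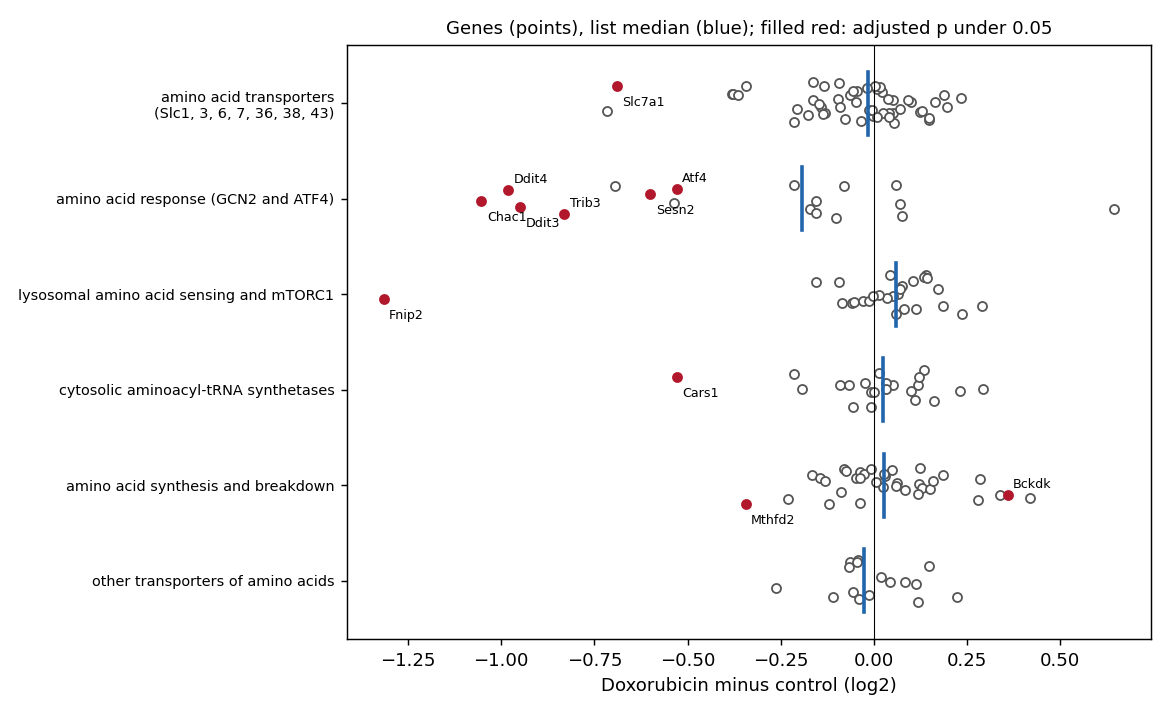
Differences (doxorubicin minus control, log2) of the 52 transporter genes and of 5 further lists of amino acid genes, each point a gene, with the list median in blue and genes past an adjusted p of 0.05 in red. The transporter median is -0.02 with Slc7a1 as the called gene, and the amino acid response list has a median of -0.19 with 6 called genes.

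Markers of the heart's cell types gave 1 call beside these results. The endothelial receptor gene Tie1 rose by 0.34 (SE 0.06, limma adjusted p = 0.0148), 1 of 7 endothelial markers, and was not called without doxorubicin 1, 2 or 3 (highest adjusted p = 0.0576 with an array left out) or with the hybridization covariate (adjusted p = 0.456). Of the others, Tek (0.13), Egfl7 (0.20) and Vwf (0.20) had positive and Pecam1 (-0.16), Esam (-0.21) and Kdr (-0.22) negative differences, and the median of the 7 was 0.13. The endothelial mean was 8.48 to 8.67 log2 in doxorubicin hearts and 8.51 to 8.60 log2 in control hearts. None of the 8 fibroblast, 7 smooth muscle and pericyte, 8 macrophage, 6 neuron and glia, 4 atrial and 6 fat markers passed in limma. At an unadjusted p under 0.05, 1 smooth muscle and pericyte marker was lower, and 1 each of that list and of the macrophage list were higher. Of all genes, 7.07% were lower and 9.67% higher at that p. Macrophage markers had a mean of 7.05 to 7.47 log2 in doxorubicin hearts and 6.82 to 7.16 log2 in control hearts. All 8 macrophage differences were positive, with a median of 0.18. The part of cell type shares in the transporter values was not tested.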

How the data were processed

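RNA of 8 hearts was measured on 8 arrays. The deposited values are probe set intensities made by the authors with RMA (background correction, joint normalization of arrays, summary of probes), per the submitters' processing notes. The software version is not given in the sources used here. The deposited intensity values were linear, with array medians of 29.9 to 31.0, so their log2 was taken with no offset. RMA gives the arrays nearly the same distribution, so a shift shared by most transcripts would not show. No detection calls were used. Depth does not apply to arrays, and precision is set by how many there are.

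Of 31099 probe sets, 57 AFFX controls were left out and 31042 tested. A single gene symbol was given for 20826, several for 436 and none for 9780. Of the 20826, 20758 had a gene ID in the RefSeq table of GRCr8, which updated the names, and no name of a member changed. Where several probe sets read a gene, that of highest mean log2 over the 8 arrays stood for it. Levels were used to choose that probe set, to mark dim ones and to pick in each family the member with the highest mean for naming. Marker levels were also averaged over genes within a heart. Levels of transporter genes were not otherwise compared with each other.

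The groups were compared with limma 3.58.1 in R 4.3.3 (lmFit, eBayes, no covariate, 8 arrays), with Benjamini-Hochberg adjustment over 31042 probe sets and calls under 0.05. The script was tested on simulated data. Array quality was compared with exact permutation tests. Figures were drawn with matplotlib 3.10.9. The members and lists were chosen with earlier results of these data known. Named were members that were called or had non-overlapping groups, in each family the member with the highest mean and the 2 with the smallest p, and 8 known ATF4 targets. Up to 4 genes of each further list were named, called ones first, and any further gene was picked for naming with its values known. Alternatives were a filter on dim probe sets, repeated quantile normalization, centring on array medians, an offset, a trended and robust fit, array weights, the mean of a gene's probe sets, the hybridization control level as a covariate, a replicate block and leaving out each array. A p-value sets a group difference against the spread between these hearts, with each probe set's variance drawn toward that of all probe sets. Nothing says whether hearts of a group shared a day, and a day shared within a group could not be told from the drug.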

Additional observations from a re-analysis of the deposited data

Results flagged for a closer look

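Slc1a3 in doxorubicin heart 4 stood at 6.52 log2, far from 5.78, 5.83 and 5.87 log2 in the other doxorubicin hearts. Slc6a6 in control heart 4 stood at 7.82 log2, far from 7.55, 7.57 and 7.59 log2 in the other control hearts. The gap to the nearest heart was 0.880 of the group's range for Slc1a3 and 0.866 for Slc6a6, above Dixon's 95% critical value of that share for 4 samples. These were 2 of 40 groups checked, those of the 20 members named by the rule, and chance alone flags about 1 in 20 groups. Slc38a4 was named outside that rule and was not checked. Its control 2, at 4.02 log2, stood apart from the other controls at 3.72 to 3.73 log2.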

How the results depend on the processing

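Over 17 alternatives, 1 transporter gene was called lower, Slc7a1, in 15, and none was called higher in 16. With the hybridization covariate, 0 genes were called lower in limma (3 lower and 1 higher at an unadjusted p under 0.05), and Slc7a1 kept its direction at -0.65. Leaving out single arrays gave 1 to 2 genes called lower and 0 to 1 called higher, the additions being Slc1a3 without control 1 (-1.02) and Slc38a4 without control 2. The median over the transporter genes stood at -0.0651 with the filter on dim probe sets, which left 39 genes, and -0.0738 with the hybridization covariate, against -0.0164 in the report. Without single arrays it ranged from -0.0465 to 0.0027, and with median centring it was 0.0060, so its sign was not the same throughout. The cause of the shift with the covariate was not tested. Slc1a1, Slc7a5, Slc1a4, Slc38a2 and Slc3a2 kept a negative sign in all 17 alternatives, none with a call, but with the hybridization covariate Slc1a1 stood at -0.19 (limma adjusted p = 0.901) and Slc3a2 at -0.13 (0.957). The covariate also gave -0.25 for Slc1a5, -0.31 for Slc6a6 and 0.06 for Slc43a1. The offset gave -0.10 for Slc38a6 and 0.11 for Slc43a1. Hearts of the same number did not deviate together (r from -0.18 to 0.06 over all probe sets). The labels do not say whether equal numbers mark pairs, and these values cannot decide it. With a replicate block 1 gene was called lower, Slc7a1, with a limma adjusted p of 0.0321 (over all alternatives 0.00165 to 0.347). Bckdk, Mthfd2, Cars1, Tie1 and Chac1 lost the call under the block. Over all probe sets the hybridization covariate, which did not overlap between the groups, left 92 calls, against 687. Cars1 also lost it with the mean of probe sets (-0.32), where Fnip2 (-0.64), Trib3 (-0.54) and Sesn2 (-0.33) were smaller but called, and Mthfd2 and Tie1 with the trended and robust fit. With 4 arrays a group, signal near background limits what can be said of the 13 dim genes and of genes just above the dim limit. Among the latter were Slc6a4, Slc6a3 and Slc38a5, with mean levels of 4.19, 4.21 and 4.23 log2.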
